A study of Homo sapiens with 4 samples.

Results

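Lysosomes digest what a cell takes in or discards, and their limiting membrane has to survive the acid and the enzymes inside while letting the products out. LAMP1 and LAMP2 are the heavily glycosylated proteins that make up most of that membrane's protein, CD63 is a tetraspanin of late endosomes and lysosomes, and SCARB2 carries the enzyme glucocerebrosidase to the lysosome. Cholesterol arrives as esters in lipoproteins, LIPA splits the esters, NPC2 picks up the free cholesterol in the lumen, and NPC1 passes it through the membrane. MCOLN1 releases calcium from the lysosome, CTNS exports cystine, and CLN3 is a membrane protein whose loss causes a childhood form of neuronal storage disease.

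These 10 genes, LAMP1, LAMP2, CD63, SCARB2, NPC1, NPC2, LIPA, MCOLN1, CTNS and CLN3, were taken by symbol from the 23622 genes of the deposited table, and all 10 were found. They are a group by the function of their proteins, but were picked with earlier results of these data known, so counts over them describe the group only. RNA sequencing had been done on MV4-11, a human acute myeloid leukemia cell line, with 2 control libraries (sh-NC) and 2 libraries after knockdown of IRF1 (sh-IRF1), the transcription factor that the study asks about. Both groups carry the genotype label WT. The labels give the sh-NC libraries no treatment and the sh-IRF1 libraries IRF1 knockdown. According to the methods, the hairpins were delivered by lentivirus in pLKO.1 and infected cells were selected with puromycin, so each library comes from a selected pool and not from 1 clone. The hairpin behind each sh-IRF1 library is not given in the sources used here. The methods say in general terms that experiments were repeated independently, but do not say whether the sequenced libraries of a group came from separate cultures, so p-values measure the spread between these libraries, which may be technical.

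The deposited values are reads per gene divided by 1 size factor per library, called normalized counts here. Recovered reads came to 17635908 and 17651512 in sh-NC and to 17697836 and 18695337 in sh-IRF1. IRF1 itself had normalized counts of 784.7 and 738.5 in sh-NC and 429.7 and 431.9 in sh-IRF1, so 56.6% of the control level remained (log2 fold change -0.82, limma adjusted p = 1.69e-10). Of the 12 markers of MV4-11 and leukemic blasts, 11 were measured above the filter. FLT3, the receptor tyrosine kinase mutated in this line, had the highest level per exon length of them in sh-NC. Its mean there was 886.1, against 715.1 for CEBPA. In sh-IRF1 the means of CEBPA (687.4) and SPI1 (681.4) were above that of FLT3 (671.9). CD34 was at or near 0 in all 4 libraries. MV4-11 markers went both ways, with LYZ and SPI1 higher and FLT3, MPO and PTPRC among the 5 that were lower.

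Every one of the 10 genes was higher in sh-IRF1. Differences are given as log2 fold changes of (normalized count + 1), which makes them too small where reads are few. limma tested 14120 genes, those that reached 10 normalized counts in 2 or more libraries. All 10 genes passed that filter with all 4 of their values. At a Benjamini-Hochberg adjusted p under 0.05, 10 of 10 were called higher and 0 lower, where 20.3% of all genes tested were called higher and 21.9% lower. A log2 fold change above 0.5 was reached as well by 7 of the 10, against 8.27% of all genes, and the remaining 3 were LIPA, MCOLN1 and CTNS. In all 10 both sh-IRF1 values lay above both sh-NC values, as they did in 34.2% of all genes. The median log2 fold change was 0.63, from 0.22 for LIPA to 0.99 for SCARB2, while the median over all genes tested was -0.0019. Leaving out 1 library at a time left between 7 and 9 of the 10 calls, with LIPA, CTNS and CLN3 the genes that lost them. With 2 libraries against 2, the smallest p an exact two-sided permutation test can give is 0.33, so the calls depend on limma's estimate of spread, pooled over genes.

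**Figure D1:**
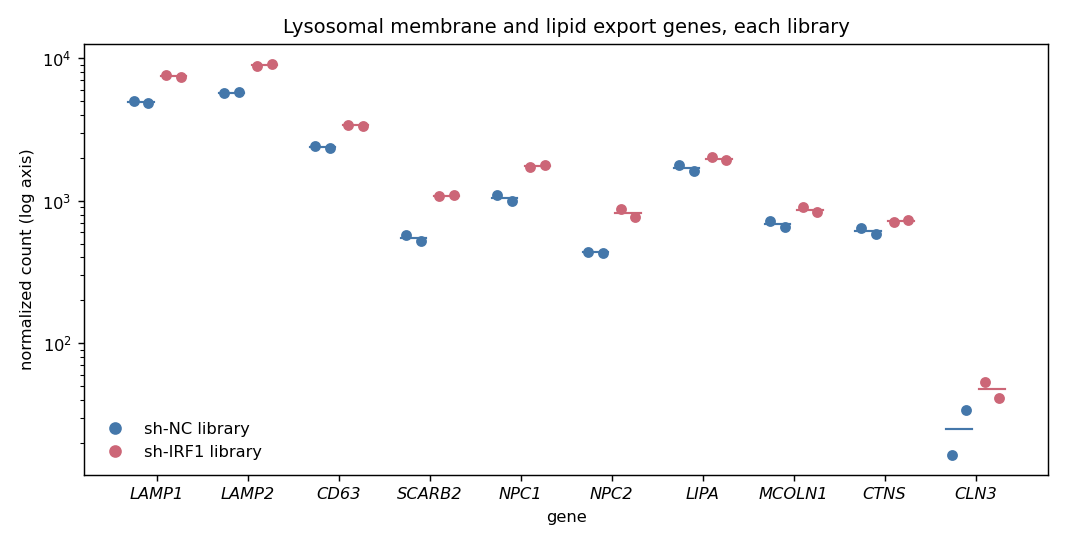
Normalized counts (log axis) of the 10 genes, with 1 point per library, sh-NC in blue and sh-IRF1 in red, and a short line at each group mean. The red points lie above the blue points for each gene, and CLN3, with 16.4 to 53.7 normalized counts, lies far below the other genes.

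The start regions of these genes differ in 1 short sequence that is known in lysosomal biology. TFEB, TFE3 and MITF are among the factors that bind the E-box core CACGTG. A longer form of it, the coordinated lysosomal expression and regulation element, was first described in the promoters of lysosomal genes. RefSeq promoter windows on GRCh38.p14, from 250 bases before to 50 bases after an annotated start, were at hand for 9 of the 10 genes. CACGTG, which reads the same on both strands, was found in LAMP1, MCOLN1, CLN3 and CD63, and 8.77% of the 27305 genes with a window hold it in any of theirs. It is not particular to these genes among the related lists described below. Of the genes with a window, it was in 8 of 26 for delivery to the lysosome and 7 of 36 other lysosomal membrane proteins. The TFEB family list had it in 3 of 17, sterol and lipid handling in 3 of 25 and other tetraspanins in 1 of 13. CD63 holds it in 1 of its windows only. The sequences are shown 5′ to 3′ on the gene's own strand with each CACGTG in capitals, and SCARB2, the gene with the largest difference, is shown beside them as a start region without it.
LAMP1: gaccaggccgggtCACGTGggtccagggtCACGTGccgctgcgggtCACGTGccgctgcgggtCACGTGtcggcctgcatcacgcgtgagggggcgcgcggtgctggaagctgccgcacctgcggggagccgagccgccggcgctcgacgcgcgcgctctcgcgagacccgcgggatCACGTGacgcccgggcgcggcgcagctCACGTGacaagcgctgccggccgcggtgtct
MCOLN1: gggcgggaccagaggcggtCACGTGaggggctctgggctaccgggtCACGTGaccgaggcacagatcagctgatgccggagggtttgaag
CLN3: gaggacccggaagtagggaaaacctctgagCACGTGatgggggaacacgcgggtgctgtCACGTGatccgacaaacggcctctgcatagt
CD63: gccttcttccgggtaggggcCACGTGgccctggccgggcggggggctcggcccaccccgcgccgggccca
SCARB2: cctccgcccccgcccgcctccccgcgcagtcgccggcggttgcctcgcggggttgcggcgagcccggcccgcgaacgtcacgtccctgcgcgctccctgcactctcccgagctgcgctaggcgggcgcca

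The stretch of LAMP1 spans chr13:113297034-113297268 on the plus strand and ends 30 bases after the start, as the stretches of MCOLN1 (chr19:7522564-7522653, plus strand), CLN3 (chr16:28492045-28492134, minus strand) and SCARB2 (chr4:76213795-76213924, minus strand) do. That of CD63 (chr12:55729140-55729209, minus strand) ends upstream of its start. LAMP1 has 6 copies, and its window is the only 1 of 35116 with 6 or more. MCOLN1 and CLN3 have 2 copies each, which 0.664% of windows reach. The longer TCACGTGA, also the same on both strands, was in LAMP1, MCOLN1 and CLN3, as was GTCACGTG on either strand, and 1.18% and 2.93% of genes hold these. Each of the longer forms contains a CACGTG already counted. Windows of SCARB2, NPC1, NPC2, LIPA and CTNS held none of these letters. GAAANNGAAA, a form of the element that interferon regulatory factors bind, was searched on both strands and found in 0 of the 9 genes and in 4.38% of all genes. A match describes the letters of a window and is not evidence of binding, and a window without one says nothing about the factor.

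**Figure D2:**
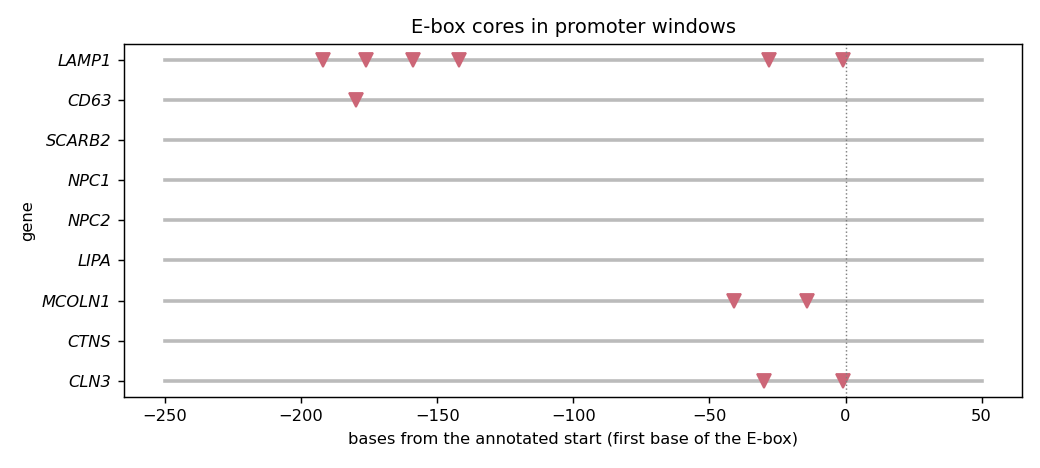
Position of the first base of each CACGTG in the promoter window of 9 genes, in bases from the annotated start; for a gene with several windows, the one with most copies is drawn. LAMP1 has 4 copies between 192 and 142 bases upstream and 2 near the start, MCOLN1 and CLN3 have 2 near the start, and 5 genes have none.

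LAMP1 (ENSG00000185896, chr13:113297239-113323672) had normalized counts of 4992.5 and 4859.3 in sh-NC and of 7648.3 and 7410.5 in sh-IRF1. The log2 fold change was 0.61 (95% interval 0.54 to 0.68, adjusted p = 8.85e-20). LAMP2 (ENSG00000005893, chrX:120426148-120469365), which also serves as a receptor in chaperone-mediated autophagy, had 5651.1 and 5749.8 in sh-NC and 8783.3 and 9160.8 in sh-IRF1. Replicates of both genes lay close together, and the gap between the groups was many times their spread. LAMP2 rose by 0.65 on the log2 scale (0.59 to 0.72, adjusted p = 1.64e-21), and its interval overlapped that of LAMP1. Neither gene shares exonic bases with another in GENCODE 44.

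CD63 (ENSG00000135404, chr12:55725323-55729707), which is also enriched on exosomes, had 2409.6 and 2334.6 normalized counts in sh-NC and 3405.9 and 3339.4 in sh-IRF1. Its log2 fold change of 0.51 (0.42 to 0.60, adjusted p = 2.22e-13) lay just above 0.5 and ran from 0.48 to 0.53 with each library left out. CD63 thus passed the adjusted p under every alternative tried, while its place above 0.5 depended on single libraries. The antisense gene CD63-AS1 overlaps 4.95% of its exonic bases and had 40 to 69 reads per library.

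SCARB2 (ENSG00000138760, chr4:76158737-76234536) showed the largest difference of the 10. It had 570.3 and 517.7 normalized counts in sh-NC and 1075.3 and 1091.6 in sh-IRF1, or 199.2% of the control mean. The log2 fold change was 0.99 (0.83 to 1.15, adjusted p = 1.08e-14). Its interval lay apart from those of LAMP1, LAMP2 and CD63, but overlapped those of NPC1, NPC2 and CLN3. No exonic base of SCARB2 is shared with another gene. Within a library the ratio of SCARB2 to LAMP1, each as a level per length, was 0.0338 and 0.0316 in sh-NC and 0.0416 and 0.0436 in sh-IRF1. The SCARB2 transcript therefore rose by more than that of LAMP1.

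The 3 genes of cholesterol release did not move by the same amount. NPC1 (ENSG00000141458, chr18:23506184-23586506) had 1091.4 and 999.4 normalized counts in sh-NC and 1719.8 and 1776.5 in sh-IRF1 (log2 fold change 0.74, 0.62 to 0.87, adjusted p = 4e-14). NPC2 (ENSG00000119655, chr14:74476192-74494177) had 438.0 and 431.4 in sh-NC and 868.4 and 773.9 in sh-IRF1 (0.91, 0.73 to 1.09, adjusted p = 6.68e-12). Transcripts of both sterol carriers, the membrane-bound and the soluble one, stood clear of the control libraries, and their intervals overlapped each other. LIPA (ENSG00000107798, chr10:89213569-89414557), the acid lipase that acts before them, had 1777.7 and 1622.8 in sh-NC and 2026.2 and 1923.6 in sh-IRF1. Its groups did not overlap, but the gap from the higher sh-NC to the lower sh-IRF1 library was no wider than the gap between the sh-NC libraries. LIPA's log2 fold change was 0.22 (0.11 to 0.33, adjusted p = 0.00111), and without sh-IRF1 replicate 1 it was 0.18 (adjusted p = 0.0535).

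The intervals of LIPA lay apart from those of NPC1 and NPC2. As levels per length, LIPA stood to NPC1 at 3.23 and 3.22 in the sh-NC libraries and at 2.34 and 2.15 in the sh-IRF1 libraries. To NPC2 it stood at 2.14 and 1.99 and at 1.23 and 1.31. So the balance between the ester-splitting enzyme and the sterol carriers was lower in both sh-IRF1 libraries, which shows unequal change and not that LIPA stayed the same. Opposite-strand genes overlap some exons of these 3 genes: RMC1 overlaps 6.38% of those of NPC1 and had 618 to 675 reads, ISCA2 overlaps 3.99% of those of NPC2 with 169 to 244 reads, and IFIT2 and IFIT3 overlap LIPA with at most 34 reads. Whether strand was used in counting is not given in the sources used here. RMC1 and ISCA2 did not pass the test (log2 fold changes -0.12 and 0.18).

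**Figure D3:**
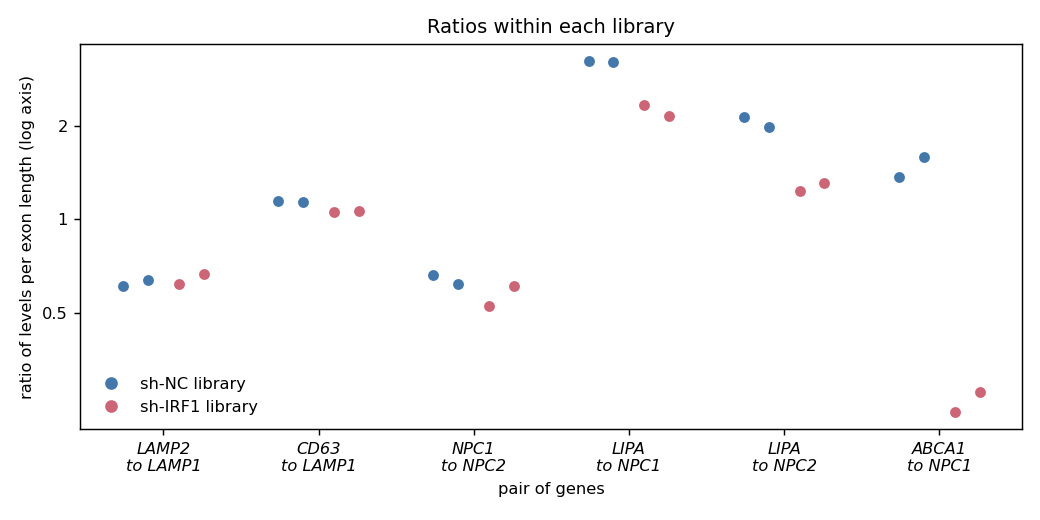
Ratio of the levels per exon length of 6 pairs of genes within each library (log axis), sh-NC in blue and sh-IRF1 in red. LAMP2 to LAMP1 overlaps between the groups, the ratios of LIPA to NPC1 and to NPC2 are lower in sh-IRF1, and ABCA1 to NPC1 shows the widest gap of the 6, from 1.37 and 1.59 to 0.24 and 0.28.

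The channel and the transporters of small solutes moved less or were measured less well. MCOLN1 (ENSG00000090674, chr19:7522624-7534009), a calcium channel gated by the lipid PI(3,5)P2, had 716.0 and 650.2 normalized counts in sh-NC and 899.2 and 831.1 in sh-IRF1. It was called under every alternative tried, with a log2 fold change of 0.34 (0.18 to 0.50, adjusted p = 0.000469). Its neighbour PNPLA6 shares 0.152% of its exonic bases and rose as well, with 3532.8 and 3584.6 against 6028.9 and 6202.7 normalized counts. A further 4.27% of the MCOLN1 exons are shared with the same-strand gene ENSG00000268614, which is absent from the deposited table.

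CTNS (ENSG00000040531, chr17:3636459-3663103), the cystine exporter that is defective in cystinosis, had 645.2 and 580.3 normalized counts in sh-NC and 705.2 and 729.0 in sh-IRF1. The groups did not overlap, but the gap between them was about as wide as the gap between the sh-NC libraries. The log2 fold change was 0.23 (0.06 to 0.40, adjusted p = 0.0274). The call was lost with DESeq2 (adjusted p = 0.0783) and without sh-NC replicate 2 (0.15, adjusted p = 0.235), sh-IRF1 replicate 1 (0.25, adjusted p = 0.0737) or sh-IRF1 replicate 2 (0.20, adjusted p = 0.16). TAX1BP3, P2RX5-TAX1BP3 and CTNS-AS1, on the other strand, overlap its exons with at most 30 reads per library each.

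CLN3 (ENSG00000188603, chr16:28474111-28495575) had the fewest counted reads of the 10, 16 and 33 in sh-NC and 54 and 44 in sh-IRF1. These were 16.4 and 33.9 against 53.7 and 41.2 normalized counts. The sh-NC libraries differed from each other by more than the nearest libraries of the 2 groups did. The fitted log2 fold change of 0.96 (adjusted p = 0.0333) therefore came with the widest interval, 0.21 to 1.71. It lay between 0.46 (without sh-NC replicate 1, adjusted p = 0.369) and 1.46 (without sh-NC replicate 2), and the call was also lost with DESeq2 (adjusted p = 0.129), without sh-IRF1 replicate 1 (0.78, adjusted p = 0.258) and without sh-IRF1 replicate 2 (1.15, adjusted p = 0.0766).

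CLN3 is also the gene whose reads are hardest to assign. Of its exonic bases, 31.1% are shared with other genes. ENSG00000261832 on the same strand, which is absent from the deposited table, shares 25.3%, and APOBR on the other strand 5.84%. The same-strand overlap is 2480 of the 9813 merged exonic bases of CLN3. How much of the canonical CLN3 transcript, which has 1685 bases, lies in it was not computed. How reads that fit both genes were counted is not given in the sources used here, so few reads need not mean few transcripts. APOBR, a receptor for apolipoprotein B48, rose from 540.6 and 463.2 to 1358.8 and 1408.3 normalized counts (log2 fold change 1.47, adjusted p = 1.16e-20), and its reads were many times those of CLN3. Its part in the CLN3 count was not tested.

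**Figure D4:**
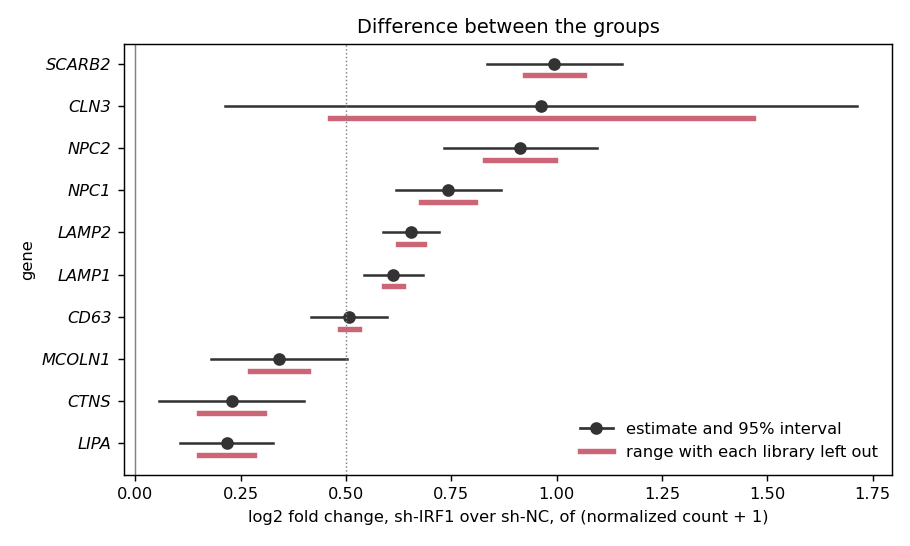
Log2 fold change of each gene (points) with its 95% interval from limma (black lines) and the range with each library left out in turn (red bars). SCARB2, NPC2, NPC1, LAMP2 and LAMP1 keep their whole interval above 0.5 (dotted line), MCOLN1, CTNS and LIPA lie lower, and the interval of CLN3 runs from 0.21 to 1.71.

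The sizes of the differences fell into a wide range beyond their errors for part of the pairs. Of the 45 pairs among the 10 genes, 24 had 95% intervals that lay apart and 21 had intervals that overlapped, among them all 9 pairs with CLN3. Differences between genes were not tested, and genes whose intervals overlap may still differ. LIPA and CTNS lay below LAMP1, LAMP2, CD63, SCARB2, NPC1 and NPC2 with intervals apart from each, and MCOLN1 lay below the same genes other than CD63.

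Abundance was compared between genes only per length, as reads per base of merged exons, scaled so that each library has the same sum (TPM). CD63 led with 207.4 in sh-NC and 306.6 in sh-IRF1, followed by LAMP1 (181.7 and 288.8) and LAMP2 (113.6 and 185.9). These 3 gave between 70.8% and 73.2% of the summed level of the 10 genes in each library. LIPA came next with 73.6 and 88.9, while MCOLN1 (36.6 and 48.1), NPC2 (35.6 and 70.0), CTNS (26.2 and 31.9) and NPC1 (22.8 and 39.7) followed. In sh-NC the libraries of MCOLN1 and NPC2 overlapped, and in sh-IRF1 NPC2 stood above MCOLN1 and NPC1 above CTNS in both libraries.

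SCARB2 (5.94 and 12.3) and CLN3 (0.542 and 1.06) came last on that scale. Merged exons are long for SCARB2, and by the length of its canonical transcript its levels were 14.8 and 30.8, so that it passed CTNS (18.9 and 23.1) in sh-IRF1. By canonical length NPC2 (67.6) was above MCOLN1 (41.9), and NPC1 (28.0) above CTNS, already in sh-NC, so the order of these genes depends on the length used. The summed level of the 10 genes was 718.6 and 689.6 in sh-NC and 1078 and 1069 in sh-IRF1, or 152.4% of the control mean. It was 155.2% by canonical length.

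Other proteins of the lysosomal membrane were a more mixed group. Of 43 listed genes 40 were tested, and 20 rose, 4 fell and 16 did not pass, with a median log2 fold change of 0.26. For this and the later lists, the shares over all genes tested are 20.3% called higher and 21.9% called lower. TTYH3, of a chloride channel family, rose from 8437.1 and 8604.1 to 14427.2 and 14463.1 normalized counts. SLC36A1, which exports small amino acids and protons, rose from 801.1 and 840.2 to 2148.6 and 2128.8, and the chloride-proton exchanger CLCN7 had a log2 fold change of 0.60. LAMP5, a relative of LAMP1 and LAMP2, went the other way, from 3954.4 and 4147.5 to 2642.9 and 2821.2 (log2 fold change -0.57, adjusted p = 2.74e-15). MFSD1 (-0.22), TMEM9 (-0.38) and SLC38A9 (-0.52) were the other genes that fell.

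Genes that handle sterols and lipids around the lysosome moved in both directions. Of 31 listed genes 27 were tested, and 10 rose and 9 fell, with a median of 0.02. ABCA1, which exports cholesterol at the cell surface after NPC1 has released it, fell from 1743.8 and 1859.1 to 481.4 and 578.1 normalized counts (log2 fold change -1.77, adjusted p = 2.21e-24). The lipoprotein receptors VLDLR (-0.82) and LRP1 (-1.30) fell too. SOAT1, which esterifies cholesterol for storage (0.72), NCEH1, which splits stored esters (0.82), and the membrane-binding annexin ANXA6 (0.47) rose. ABCA1 and these receptors were thus lower in the libraries in which NPC1 and NPC2 were higher. Per length, ABCA1 stood to NPC1 at 1.37 and 1.59 in sh-NC and at 0.24 and 0.28 in sh-IRF1.

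Delivery to the lysosome was tested with 34 genes, of which 12 rose and 5 fell (median 0.11). IGF2R, the large mannose 6-phosphate receptor, rose from 8242.2 and 8328.9 to 11208.4 and 11331.7 normalized counts (log2 fold change 0.44). GNPTAB, which makes the mannose 6-phosphate tag (0.55), and the adaptor subunit AP1S1 (0.39) rose with it. RAB7A (-0.30), a GTPase that directs late endosomes to lysosomes, fell, as did AP3S1 (-0.40), a subunit of the adaptor that sorts LAMP proteins.

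Tetraspanins other than CD63 showed no common direction. Of 16 tested, 3 rose and 3 fell (median 0.08), which is 18.75% in each direction and near the shares over all genes tested. CD82 rose from 929.4 and 919.3 to 2471.8 and 2438.9 normalized counts (log2 fold change 1.41), more than CD63, and CD81 rose by 0.26. CD53 had a log2 fold change of 0.14 (adjusted p = 0.0212), a call lost with DESeq2 (adjusted p = 0.0526). TSPAN3 (-0.79), CD151 (-0.54) and CD9 (-1.02) fell.

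Of 20 tested genes of the TFEB family and of lysosomal stress sensing, 11 rose and 5 fell (median 0.39). SQSTM1, the autophagy receptor p62, rose from 2139.8 and 2004.9 to 4105.2 and 3963.4 normalized counts (log2 fold change 0.96). TRIM16 (0.81) and FLCN (0.75), a regulator of TFE factors at the lysosome, rose as well, and the calcineurin subunits PPP3R1 (-0.70), PPP3CB (-0.47) and PPP3CA (-0.28) fell. The factors of this family did not share a direction. TFEB itself was lower, 648.3 and 612.2 against 523.2 and 511.6 (-0.28, adjusted p = 0.00938), and TFE3 was higher, 956.0 and 912.1 against 1197.6 and 1264.0 (0.40, adjusted p = 3.34e-06). The call of TFEB was lost without sh-NC replicate 1 (adjusted p = 0.0734) or sh-IRF1 replicate 2 (adjusted p = 0.0658). MITF had few reads, with 53.3 and 54.4 against 29.8 and 31.9 normalized counts (-0.79, adjusted p = 0.0452). Its call was lost in 10 of 12 alternatives, among them edgeR (adjusted p = 0.0549), DESeq2 (adjusted p = 0.118) and the replicate block (adjusted p = 0.0523). TFEC, the remaining relative, rose from 600.1 and 657.4 to 859.4 and 846.1 (0.44, adjusted p = 1.34e-05). These are transcript levels and say nothing about where in the cell the factors were.

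**Figure D5:**
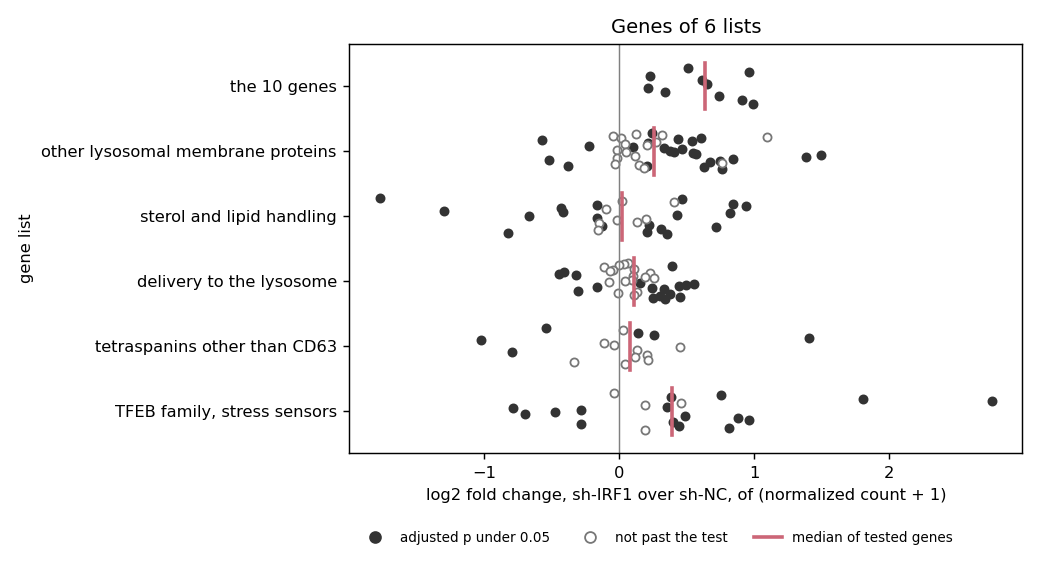
Log2 fold change of each tested gene in 6 lists, filled where the adjusted p is under 0.05 and open where it is not, with a red line at the median. The 10 genes lie entirely to the right of 0 with a median of 0.63, and every other list has genes on both sides.

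Interferon-stimulated genes were read because IRF1 is known for inducing many of them. Of 20 tested, 6 rose and 1 fell (median 0.22), with IFIH1 (log2 fold change 1.09), IFI6 (0.98) and MX2 (0.86) leading the first group and USP18 (-0.93) the second.

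Markers of other cell types were mixed. Monocyte and macrophage maturation markers, 11 of 21 tested, had summed levels per length of 793.1 and 776.1 in sh-NC and of 773.9 and 772.8 in sh-IRF1. Most of each sum was CD4, which did not pass the test (log2 fold change 0.01), and the other markers summed to 240.0 and 235.6 in sh-NC and to 199.6 and 199.0 in sh-IRF1. ITGAX and ITGAM rose among them (log2 fold changes 1.08 and 0.64), and FCGR1A (-0.57), CD14 (-2.81) and S100A9 (-2.20) fell. The last 2 had few reads. CD14 had 37 and 41 in sh-NC and 11 and 2 in sh-IRF1, and S100A9 had 30 and 21 against 8 and 3. Of B cell markers, 4 of 6 were tested and CD79A rose from 50.3 and 43.1 to 190.0 and 250.2 normalized counts, and the summed level ran from 11.9 to 13.4 in sh-NC and from 35.0 to 45.9 in sh-IRF1.

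T cell and NK cell markers had 1 of 9 tested, NKG7, which did not pass (-0.12), and of the erythroid and megakaryocyte markers ITGA2B alone was tested and fell (-1.04). Among epithelial and fibroblast markers 2 of 9 were tested, and KRT8 had a log2 fold change of 0.57 (adjusted p = 0.0111, lost with DESeq2 at 0.0606) while KRT18, with the highest level, did not pass (0.18). The part of these markers in the results was not tested. In bulk RNA, a larger share of cells with more of a transcript and more of it per cell cannot be told apart.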

How the data were processed

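Total RNA of 4 MV4-11 libraries, 2 sh-NC and 2 sh-IRF1, was sequenced by a service company. Submitters' processing notes name HISAT2 2.0.5 and hg38; the counter, annotation and use of strand are not given in the sources used here. The authors deposited a signal: reads per gene divided by 1 size factor per library, for 23622 identifiers. All values (100%) were whole multiples of 1 read's worth within 0.01 of a read, so reads were recovered. No other columns of values (0) were present. Depth was 17635908 to 18695337 reads, and replicates differed by more than sampling noise (chi-square per gene 2.52 in sh-NC, 2.37 in sh-IRF1, over genes whose pair held 20 to 5000 reads).

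limma (3.58.1, R 4.3.3; trend, robust, 43 prior degrees of freedom) was run on log2(value + 1) for the 14120 genes that reached a value of 10 in 2 or more libraries, with Benjamini-Hochberg adjustment over all. Every adjusted p is from limma unless another tool is named. Replicate numbers come from the library titles. Symbols matched 23456 identifiers; positions and exon lengths came from GENCODE 44 on GRCh38, and 166 genes without a length were left out of levels per length. Promoter windows were RefSeq's (GRCh38.p14); 9 of the 10 genes matched. Alternatives were edgeR (4.0.16, TMM) and DESeq2 (1.42.0) on recovered reads, 2 other scalings, no filter, a pseudocount of 10, no robust setting, a replicate block and leaving out each library; the canonical length was added after seeing the data. On simulated data with 200 changed genes the scripts were checked beforehand.

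The members and lists were chosen with earlier results of these data known. Text names all 10 genes, IRF1, genes that share exons with the 10, from each list up to 3 called genes per direction with the smallest adjusted p, and the highest gene of each cell type list. Some genes that this rule names are not reported here. TFEB, TFE3, MITF, TFEC, CD34, CEBPA and SLC38A9 were named after their values were seen.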

Additional observations from a re-analysis of the deposited data

How the results depend on the processing

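Among 64 genes followed, the 10 included, 0 changed direction under any of the 12 alternatives, and 32 of 766 values lost the call. edgeR called 10 of the 10 genes higher and DESeq2 8, which gave no adjusted p to 9160 genes of the whole table; 0 were called lower by either. With each library left out, 7 to 9 genes were called higher and 5 to 6 of them with a log2 fold change above 0.5, against 7 in full. Under total-count scaling the median over all genes moved by less than 0.1, from -0.0019 to 0.043, and 10 of the 10 genes were called. Lost calls were 1 for LIPA, 4 for CTNS, 4 for CLN3 and 10 for MITF; the cause was not tested. CD9 lost its call without sh-IRF1 replicate 2 (adjusted p = 0.0745), ITGAM without sh-NC replicate 1 (0.0785) or sh-IRF1 replicate 1 (0.0772). CD53 and KRT8 lost theirs without sh-NC replicate 2 (0.159 and 0.297) and without either sh-IRF1 library. Of the list counts, TFEB family genes called lower went from 5 to 3 without sh-NC replicate 1 or sh-IRF1 replicate 2, MV4-11 markers called lower from 5 to 3 under total-count scaling, and monocyte markers called lower from 4 to 2 without sh-NC replicate 1. IRF1 ran from -0.86 to -0.78 with each library left out.

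Same-numbered libraries did not deviate together over all genes tested (correlation -0.0154). That value cannot show whether they shared a culture, an infection or a preparation. With the replicate block, 10 of the 10 genes were called higher, 0 lower, and 7 lay above 0.5. Among the genes followed, MITF lost its call with the block (adjusted p = 0.0523).

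CLN3 had 16 to 54 reads per library. Total RNA per cell was not measured, so all changes are relative to the other genes of a library.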
